A study of Mus musculus with 10 samples.

Results

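The transferases that attach glutathione, glucuronic acid or sulfate to drugs, carcinogens, bile pigments and hormones were examined in mouse intestinal organoids. Members were the genes whose listed name begins with Gsta, Gstm, Gstp, Gstt, Gsto, Gstk, Mgst, Ugt1, Ugt2, Ugt3 or Sult, without pseudogenes, and 63 of the 47069 listed genes met this rule: 20 glutathione S-transferases of the soluble kind (GST), 3 microsomal ones (MGST), 21 UDP-glucuronosyltransferases (UGT) and 19 sulfotransferases (SULT). Of the 63, 40 were measured well enough to be tested, 7 had counts but were too low to test, and 16 had no count in any library. Those 16 were *Gstt4*, *Ugt1a10*, *Ugt2a1*, *Ugt2a2*, *Ugt2b37*, *Ugt3a1*, *Ugt3a2*, *Sult2a1* to *Sult2a8* and *Sult3a1*. The 7 too low to test were *Sult1c1*, *Sult1e1*, *Sult6b1*, *Ugt1a2*, *Ugt1a5*, *Ugt1a8* and *Ugt2b1*.

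The study asked which cells of the intestine give rise to carcinogen-induced tumours when protein phosphatase PP2A is lost. All 10 libraries came from C57BL/6 organoids cultured over 50 days in Matrigel with Noggin, EGF and R-spondin-1 (NER medium), 2 libraries in each of 5 groups. The organoids carried Lgr5-EGFP-CreERT2 with both alleles of *Ppp2r1a* floxed, control organoids included. Tamoxifen thus deletes part of this PP2A subunit gene in cells that express Lgr5, the marker of crypt stem cells, when it is given. Control organoids received saline, and the others received the polycyclic aromatic hydrocarbon DMBA (labelled Long), tamoxifen (TAM) labelled short, TAM labelled Long, or DMBA with TAM (DMBA+TAM). The titles of the libraries are NS for control, NL for DMBA, DSS_S and DSS_L for TAM short and long, and Lgr5 for DMBA+TAM. What short, long, S and L mean is not given in the sources used here, and S and L could stand for small and large intestine, since markers of the 2 gut regions split along these letters (values below). Treatment and gut region therefore cannot be told apart in any comparison of a long group with control or TAM short. It is also not given whether the 2 libraries of a group came from separate animals or cultures, so p-values measure the spread between these libraries, which may be technical.

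These enzymes form the second step of detoxification, in which a reactive or fat-soluble compound is joined to a water-soluble group and then pumped out of the cell. GST enzymes take up electrophiles such as the epoxides that form from polycyclic aromatic hydrocarbons, UGT enzymes serve phenols, steroids, bilirubin and hydroxylated tamoxifen, and SULT enzymes serve phenols, steroids and catecholamines. Sulfation can also activate, since the sulfate esters of some benzylic alcohols of such hydrocarbons bind DNA. In the gut the enterocyte is a main site of these reactions, and the set of isoforms differs along its length.

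Totals ranged from 8828247 to 10923673 counts in the 8 libraries of the first 4 groups and were 1592366 and 1915270 in DMBA+TAM. A count of 3, the upper limit that a count of 0 allows, corresponded to 0.258 to 0.378 normalized CPM (counts scaled to library size and TMM factor) in the former and to 1.58 and 1.32 in the latter, so low genes were measured least precisely there. *Ppp2r1a* itself stood at 123 and 129 normalized CPM in control, 167 and 152 in DMBA, 130.3 and 147 in TAM short, 169 and 157 in TAM long, and 129 and 133 in DMBA+TAM, so it was not lower in any TAM group (it was higher in TAM long, log2 fold change 0.37, SE 0.11, adjusted p = 0.0213, and in DMBA without tamoxifen, 0.34, SE 0.11, adjusted p = 0.0291). Counts per gene include exons outside the floxed part and any cells without the deletion, so this gene does not check the labels. The groups are named here as labelled.

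The cell types in the organoids moved with the groups. The summed level of 10 epithelial markers was 15686 to 23583 normalized CPM in the other groups and 27.7 to 36.3 in DMBA+TAM, where 10 of 10 fell, none stood at 0 in both libraries (*Elf3* did in replicate 1), and 10 of 10 fibroblast, 5 of 6 fat cell, 5 of 5 endothelial and 5 of 5 macrophage markers rose. The fibroblast sum was 34269 to 35363 in DMBA+TAM and 1262 to 1447 in control. The small intestine sum of 10 markers was 39487 to 42324 in control, 20340 to 22729 in TAM short, 525 to 773 in DMBA and 900.3 to 1006 in TAM long, with *Apoa4* at 0 in DMBA and *Apoa4* and *Lct* at 0 in TAM long. The colon sum of 6 markers was 504 to 528 in control and 566 to 603 in TAM short, against 3359 to 7252 in DMBA and 5745 to 12696 in TAM long, and 6 of 6 colon markers rose in DMBA and 5 of 6 in TAM long. Sums of 6 smooth muscle markers were 1754 to 2071 in control, 7145 to 12048 in DMBA and 8344 to 12809.9 in TAM long. In DMBA+TAM the smooth muscle sum was 1461 to 1602, with 2 of the 6 higher than control and 3 lower. In TAM short 8 of the 10 small intestine markers fell and *Fabp6*, the ileal bile acid binding protein, rose from 2.82 and 0.240 to 7830.5 and 8946. Without *Fabp6*, left out after its values were seen, the TAM short sum was 11394 to 14899. Fibroblast markers also rose in DMBA (9 of 10) and in TAM long (4 rose, 1 fell) and fell in TAM short (6 fell, 1 rose), and smooth muscle markers rose in DMBA and TAM long (6 of 6 in each). Small intestine markers were thus highest in control and TAM short and colon markers in DMBA and TAM long. The part of these markers in the results below was not tested, and in bulk RNA fewer cells of a type and less RNA per cell cannot be told apart.

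The regions upstream of 6 members are shown because these genes carry the main contrasts: the sulfotransferases *Sult1a1* (which rose) and *Sult1d1*, a UGT with no counts in 6 libraries (*Ugt2a3*), and 3 neighbouring mu-class genes that moved in different directions (*Gstm1*, *Gstm2*, *Gstm3*). Each sequence comes from RefSeq (GRCm38.p6), runs 5′ to 3′ on the gene's strand and leaves out bases in exons of GENCODE M21. Capitals mark GCGTG, the core that the aryl hydrocarbon receptor binds (CACGC on the other strand), and a sequence without capitals holds no such match in the stretch shown.
Sult1a1 (chr7:126676433-126676668, minus strand): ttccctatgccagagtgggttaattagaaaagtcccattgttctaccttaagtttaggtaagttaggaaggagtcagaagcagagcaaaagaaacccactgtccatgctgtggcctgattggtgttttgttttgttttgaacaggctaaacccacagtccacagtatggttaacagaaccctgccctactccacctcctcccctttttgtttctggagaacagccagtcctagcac
Sult1d1 (chr5:87569028-87569256, minus strand): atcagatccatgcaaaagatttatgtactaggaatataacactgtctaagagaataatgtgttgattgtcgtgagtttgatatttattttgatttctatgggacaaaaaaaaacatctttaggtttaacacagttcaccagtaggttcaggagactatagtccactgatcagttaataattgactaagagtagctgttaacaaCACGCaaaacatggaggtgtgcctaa
Ugt2a3 (chr5:87337196-87337445, minus strand): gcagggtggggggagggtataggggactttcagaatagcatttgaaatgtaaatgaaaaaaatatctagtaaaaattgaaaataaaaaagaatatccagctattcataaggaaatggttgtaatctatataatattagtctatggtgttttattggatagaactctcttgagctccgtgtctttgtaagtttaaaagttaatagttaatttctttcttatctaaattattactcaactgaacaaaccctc
Gstm1 (chr3:108017974-108018223, minus strand): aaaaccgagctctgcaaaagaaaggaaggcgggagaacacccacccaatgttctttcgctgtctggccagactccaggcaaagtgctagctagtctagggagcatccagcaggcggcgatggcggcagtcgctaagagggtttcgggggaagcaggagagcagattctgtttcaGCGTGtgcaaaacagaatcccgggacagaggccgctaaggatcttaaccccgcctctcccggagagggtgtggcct
Gstm2 (chr3:107986454-107986670, minus strand): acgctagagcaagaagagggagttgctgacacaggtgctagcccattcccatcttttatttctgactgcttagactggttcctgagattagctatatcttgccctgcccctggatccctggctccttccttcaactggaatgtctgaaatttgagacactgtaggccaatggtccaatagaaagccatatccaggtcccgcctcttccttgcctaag
Gstm3 (chr3:107969284-107969424, minus strand): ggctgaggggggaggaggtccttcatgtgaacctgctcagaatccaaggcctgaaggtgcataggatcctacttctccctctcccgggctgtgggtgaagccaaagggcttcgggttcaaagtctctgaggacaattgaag

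Promoter windows of 300 bases, 250 before and 50 after the start, were found for 55 of the 63 members. The entries missing were those of *Gsta4*, *Gstt2*, *Sult2a1*, *Sult2a2*, *Sult2a7*, *Sult4a1*, *Ugt1a6b* and *Ugt3a2*. Searched on both strands, GCGTG was found in 11 of the 55 members and in 35.2% of all 27025 genes. The members with it were *Gsta1*, *Gsta2*, *Gstm1*, *Gstm5*, *Gstp1*, *Mgst3*, *Sult1b1*, *Sult1d1*, *Sult2b1*, *Ugt1a5* and *Ugt1a8*, and the match in *Sult1d1* lies 47 bases before its start. Searched likewise, the antioxidant response core TGACNNNGC, bound by Nrf2, was found in 4 members (*Gsta3*, *Gstm5*, *Gstm7*, *Mgst1*) and 14.0% of all genes. In *Gstm5* a GCGTG match overlaps the TGACNNNGC match. A match is a description of the letters in these windows only.

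The summed level of the transferases was lowest in DMBA+TAM, and in DMBA and TAM long some members rose while more fell. Over all members the sum was 3949 to 4449 normalized CPM in control, 2142 to 2404 in DMBA, 2433 to 2466 in TAM short, 3016 to 3695 in TAM long and 476 to 529.9 in DMBA+TAM. In DMBA against control, 5 of the 40 tested members rose and 19 fell (edgeR's quasi-likelihood test, adjusted p under 0.05), where 24.5% of all 16179 genes tested rose and 23.3% fell (47.8% in either direction). In TAM long against control 7 rose and 14 fell, against 23.2% and 22.8% of all genes (46.0% together). In TAM short 2 rose and 16 fell, against 6.52% and 7.80% (14.3% together), and in DMBA+TAM 3 rose and 23 fell, against 29.0% and 35.3% (64.3% together). The median log2 fold change of the 40 was -3.08 in DMBA+TAM (-2.47 with genes at 0 set to their bound), -1.06 in TAM short, 0.09 in TAM long and -0.58 in DMBA, against -0.17, -0.04, 0.05 and 0.07 for all genes. These comparisons share the control libraries. Without control replicate 1, 3 members rose in DMBA and 4 in TAM long, and without TAM long replicate 2, 8 fell in TAM long (9 without control replicate 2). The counts in TAM short were lower without any single library of that comparison, at 0 or 1 risen and 10 to 15 fallen (2 risen at an unadjusted p in each case).

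**Figure D1:**
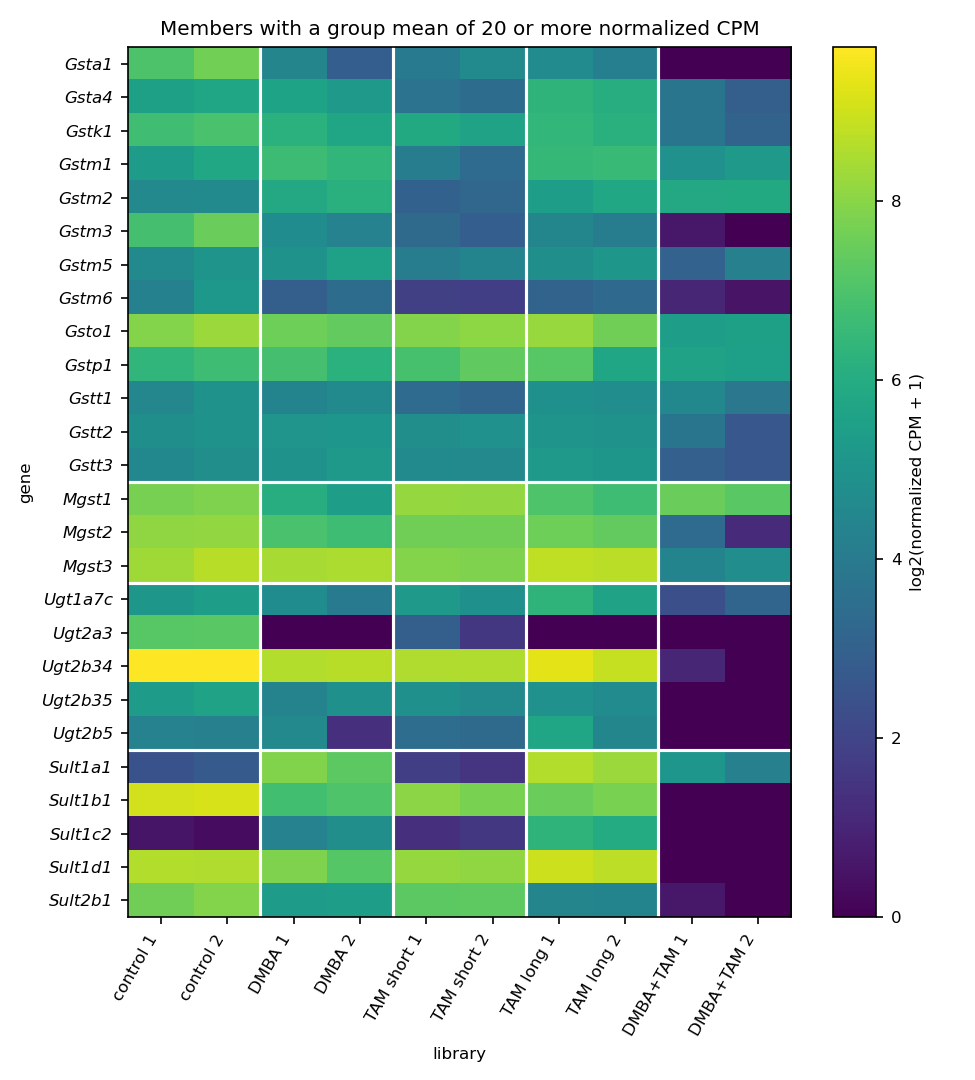
Heat map of the 26 members with a mean of at least 20 normalized CPM in a group, 1 row a gene and 1 column a library, coloured by log2(normalized CPM + 1), with white lines between groups and classes. Most rows are dark in the 2 DMBA+TAM libraries. *Mgst1* is the brightest row there, followed by *Gstm2* and then by *Gstp1* and *Gsto1*. *Sult1a1* and *Sult1c2* are brightest in DMBA and TAM long.

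Among the soluble GST genes, 3 rose and 7 fell in DMBA, 5 rose and 6 fell in TAM long, 1 rose and 11 fell in TAM short, and 1 rose and 11 fell in DMBA+TAM, of 19 tested. Of all genes, 47.8%, 46.0%, 14.3% and 64.3% were called in either direction in these comparisons. Taking both directions together, the shares of GST genes called in DMBA, TAM long and DMBA+TAM were near those of all genes. The share in TAM short was above that of all genes. By direction, 29.0% of all genes rose and 35.3% fell in DMBA+TAM, and 6.52% and 7.80% in TAM short. In the alpha class, *Gsta1* (chr9:78230656-78242684) had the highest mean normalized CPM in control and TAM short and *Gsta4* in the other groups. In DMBA+TAM replicate 2, *Gsta3* was above *Gsta4* (10.1 against 6.59). *Gsta1* is an enzyme for lipid hydroperoxides and diol epoxides. *Gsta1* stood at 126 and 197 normalized CPM in control, 20.5 and 6.39 in DMBA, 14.9 and 23.4 in TAM short, 24.9 and 17.4 in TAM long, and 0 in both DMBA+TAM libraries. Every treated library lay below both controls. It fell 11.8-fold in DMBA (log2 fold change -3.56, SE 0.48, adjusted p = 0.000429), 7.61-fold in TAM long (adjusted p = 0.00107) and 8.43-fold in TAM short (adjusted p = 0.00361, 0.0544 without TAM short replicate 1), and was at least 111-fold lower in DMBA+TAM, taking 3 counts in each library as the floor. Of its 50-base stretches 90.5% also occur in other genes, the gene model *Gm3776* first, so most of its reads may not be told from theirs.

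The other alpha genes did not all fall. *Gsta2*, which shares 49.8% of its stretches with other genes, had 2.14 and 3.97 normalized CPM in control and 0.126 to 0.451 in DMBA, TAM short and TAM long, and fell in each (log2 fold change -3.30 in TAM short and -3.19 in TAM long, and 12.2-fold lower in DMBA with a 95% counting interval of 4.90 to 39.1), though its call in TAM short was lost without 3 of the 4 libraries (adjusted p up to 0.15). *Gsta3* fell in DMBA alone of the comparisons with control (8.60 ± 0.604 to 2.71 ± 0.194, SD, n = 2, adjusted p = 0.00142). *Gsta4*, the enzyme for hydroxynonenal from oxidized lipids, stood at 44.7 and 51.2 normalized CPM in control, 48.8 and 36.5 in DMBA, 12.1 and 9.82 in TAM short, 78.8 and 65.3 in TAM long, and 12.6 and 6.59 in DMBA+TAM. Its TAM long libraries were the highest of the 10 and its TAM short libraries did not overlap the control. The fall of *Gsta4* in TAM short was 4.37-fold (adjusted p = 0.00038). The rise in TAM long (log2 fold change 0.59, adjusted p = 0.0422) was lost without any single library of that comparison (adjusted p up to 0.246).

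The 7 mu-class genes lie side by side on chromosome 3, from *Gstm5* at 107895821 to *Gstm4* at 108044894 (GRCm38), and neighbours moved in different directions. *Gstm1* stood at 39.9 and 55.5 normalized CPM in control, 100.2 and 83.8 in DMBA, 16.2 and 9.57 in TAM short, 88.7 and 91.3 in TAM long, and 29.5 and 36.1 in DMBA+TAM. *Gstm2* stood at 22.5 and 23.6 in control, 57.9 and 71.7 in DMBA, 7.10 and 8.19 in TAM short, 41.6 and 55.1 in TAM long, and 56.9 and 58.9 in DMBA+TAM. For both genes DMBA and TAM long lay above all control libraries and TAM short below them. *Gstm3* had the reverse order in the long groups, at 115 and 178 in control, 25.5 and 18.7 in DMBA, 9.25 and 6.42 in TAM short, 20.8 and 16.2 in TAM long, and 0.527 and 0 in DMBA+TAM. *Gstm6* followed *Gstm3*, at 18.3 and 34.9 in control, 6.59 and 9.75 in DMBA, 2.59 and 2.52 in TAM short, 7.57 and 9.12 in TAM long, and 1.05 and 0.440 in DMBA+TAM. Both lay below control in every treated library. *Gstm5*, abundant in testis and brain, was at 24.3 and 31.9 in control, 29.7 and 46.2 in DMBA, 15.8 and 19.6 in TAM short, 27.3 and 34.4 in TAM long, and 7.37 and 18.0 in DMBA+TAM.

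In DMBA, *Gstm1* rose 1.93-fold (adjusted p = 0.0065) and *Gstm2* 2.81-fold (adjusted p = 8.3e-05), while *Gstm3* fell 6.60-fold (adjusted p = 4.01e-05) and *Gstm6* 3.26-fold (adjusted p = 0.00175). The same 4 genes were called in the same directions in TAM long, at 1.89-fold and 2.10-fold higher and 7.89-fold and 3.18-fold lower, and *Gstm7* also fell there (log2 fold change -1.01, SE 0.28), a call that DESeq2 did not make (adjusted p = 0.0523) and that was lost without 3 of the 4 libraries (up to 0.168). In TAM short 6 of the 7 fell, against 7.80% of all genes (that of *Gstm4* was lost without 3 of the 4 libraries, adjusted p up to 0.225), with *Gstm3* 18.6-fold lower, *Gstm6* 10.3-fold, *Gstm1* 3.68-fold and *Gstm2* 3.01-fold. In DMBA+TAM *Gstm2* was the only soluble GST that rose (2.52-fold, adjusted p = 9.61e-05). There *Gstm3* and *Gstm6* had at most 2 counts a library, and *Gstm3* was 607-fold lower with a 95% counting interval of 109 to 24000.0. The call of *Gstm1* was lost without control replicate 1 in DMBA (adjusted p = 0.0817) and without that library or TAM long replicate 2 in TAM long (up to 0.0951), and without control replicate 1 *Gstm1* was called lower in DMBA+TAM (adjusted p = 0.0444). The call of *Gstm5* in DMBA+TAM was lost without control replicate 2 or DMBA+TAM replicate 1 (up to 0.151). Of the 50-base stretches of *Gstm1* and *Gstm3*, 18.9% and 28.8% also occur in other genes. Small intestine markers fell and colon and smooth muscle markers rose in the same long groups. Fibroblast markers rose in DMBA (9 of 10) and DMBA+TAM (10 of 10) and fell in TAM short (6 fell, 1 rose). In TAM long 4 of them rose and 1 fell. *Gstm1* and *Gstm2* rose in DMBA and TAM long and fell in TAM short. In DMBA+TAM *Gstm2* rose, while *Gstm1* lay below both controls and was not called with all libraries. The part of all these markers was not tested.

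**Figure D2:**
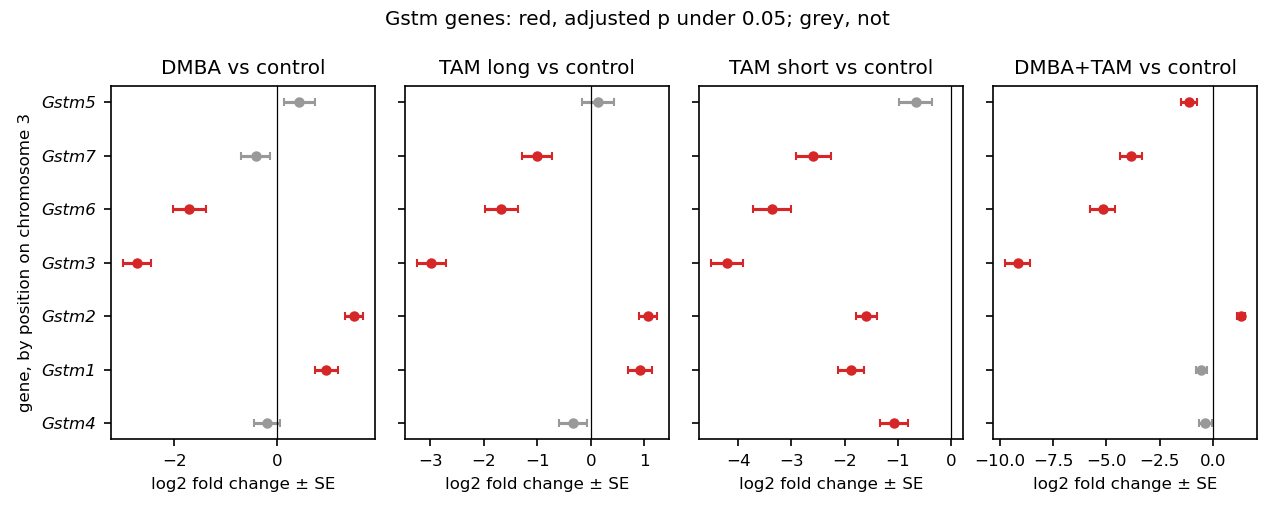
Log2 fold changes with standard errors (n = 2 libraries a group) of the 7 Gstm genes, ordered by position, in 4 comparisons with control, with red for an adjusted p under 0.05. *Gstm2* and *Gstm1* lie right of 0 in DMBA and TAM long while *Gstm3* and *Gstm6* lie left, and all 7 lie left of 0 in TAM short.

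*Gsto1*, which reduces dehydroascorbate and arsenic compounds, stood at 241 and 306 normalized CPM in control, 190.3 and 164 in DMBA, 242 and 265 in TAM short, 295 and 193 in TAM long, and 42.7 and 44.4 in DMBA+TAM. Per length it was the leading soluble GST outside DMBA+TAM, with 27.0% and 28.4% of the summed FPKM (the authors' counts scaled by gene length and library size) of the class in control and 42.4% and 43.3% in TAM short. It fell 6.28-fold in DMBA+TAM (adjusted p = 3.71e-06), and its fall in DMBA (log2 fold change -0.63, adjusted p = 0.0253) was lost without control replicate 2 or DMBA replicate 2 (adjusted p up to 0.177). *Gstk1*, of mitochondria and peroxisomes, had 106 and 122 normalized CPM in control, 73.7 and 53.4 in DMBA, 59.4 and 48.0 in TAM short, 84.3 and 71.6 in TAM long, and 12.6 and 7.47 in DMBA+TAM. Both controls lay above every treated library. It fell in all 4 comparisons with control (log2 fold change -0.84, -1.08, -0.54 and -3.52 in that order), but the calls in the single treatments were lost without 1 or more libraries (adjusted p up to 0.25).

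*Gstp1*, the pi-class enzyme that is often abundant in tumours, varied between libraries of a group. It was at 82.3 and 102 normalized CPM in control, 115 and 72.4 in DMBA, 117 and 162 in TAM short, 144 and 53.0 in TAM long, and 47.9 and 44.0 in DMBA+TAM, and no comparison with control passed the edgeR test (log2 fold change -1.01, adjusted p = 0.0646 in DMBA+TAM, where DESeq2 called it lower). Its neighbour *Gstp2* rose in TAM long (2.73 ± 0.454 to 13.1 ± 7.29, SD, n = 2) and TAM short (to 8.40 ± 0.404, a call lost without any single library, adjusted p up to 0.209), but 54.3% of its 50-base stretches occur in other genes, *Gstp1* first. *Gstt1* was at 21.4 and 29.9 in control, 19.8 and 24.2 in DMBA, 9.58 and 7.93 in TAM short, 28.6 and 26.1 in TAM long, and 22.1 and 13.6 in DMBA+TAM, and fell in TAM short (adjusted p = 0.00278). Without control replicate 1 or DMBA+TAM replicate 1 it was also called lower in DMBA+TAM (log2 fold change -0.79 and -0.94, adjusted p = 0.0427 and 0.0267). *Gstt2* was at 27.8 and 30.8 in control, 32.7 and 33.0 in DMBA, 26.6 and 28.8 in TAM short, 31.3 and 30.8 in TAM long, and 12.6 and 5.28 in DMBA+TAM. *Gstt3* was at 21.9 and 27.0 in control, 30.0 and 35.9 in DMBA, 23.3 and 22.7 in TAM short, 36.5 and 34.7 in TAM long, and 6.85 and 5.28 in DMBA+TAM. Both of these theta genes fell in DMBA+TAM (log2 fold change -1.74 and -2.02). *Gstt3* also rose in DMBA (log2 fold change 0.43) and TAM long (0.54), calls that were lost without 3 of the 4 libraries in each comparison (adjusted p up to 0.29 and 0.147), the former also by DESeq2.

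The microsomal enzymes separated in DMBA+TAM, where *Mgst1* was not called against control while *Mgst2* and *Mgst3* fell. *Mgst1*, a membrane enzyme with glutathione transferase and peroxidase activity, stood at 211 and 227 normalized CPM in control, 64.6 and 42.1 in DMBA, 288 and 283 in TAM short, 129 and 104 in TAM long, and 177 and 148 in DMBA+TAM. The DMBA libraries were the lowest of the 10, and the DMBA+TAM libraries lay between TAM long and control. It fell 4.10-fold in DMBA (adjusted p = 3.77e-05) and 1.88-fold in TAM long (adjusted p = 0.00386), was not called in DMBA+TAM against control (log2 fold change -0.43, SE 0.20, adjusted p = 0.0771), and was 3.03-fold higher in DMBA+TAM than in DMBA (adjusted p = 9.71e-05). *Mgst2*, which can make cysteinyl leukotrienes, stood at 277 and 278 in control, 122 and 103 in DMBA, 192 and 193 in TAM short, 187 and 164 in TAM long, and 9.48 and 1.32 in DMBA+TAM. *Mgst3* stood at 322 and 408 in control, 343 and 364 in DMBA, 242 and 226 in TAM short, 436 and 416 in TAM long, and a mean of 23.2 in DMBA+TAM (38 and 60 counts). Both were below all other libraries in DMBA+TAM, and against control they were 54.2-fold (adjusted p = 1.27e-06) and 15.7-fold (adjusted p = 6.69e-08) lower, and *Mgst2* also fell 2.46-fold in DMBA. The fall of *Mgst3* in TAM short (log2 fold change -0.64) was lost without 3 of the 4 libraries (adjusted p up to 0.17). Per length *Mgst1* made up 87.8% and 87.9% of the MGST FPKM in DMBA+TAM and 28.4% and 27.7% in control. Fibroblast, fat cell, endothelial and macrophage markers rose in the same DMBA+TAM libraries.

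The UGT genes called against control fell. Of 11 tested, 3 fell in TAM short, 5 in TAM long and 7 each in DMBA and DMBA+TAM, where 7.80%, 22.8%, 23.3% and 35.3% of all genes fell, and 0 rose against control in the edgeR test (0 by DESeq2 too, and at an unadjusted p 1 in TAM long). *Ugt2a3* (chr5:87324972-87337195), whose human counterpart conjugates bile acids, had 146 and 150.5 normalized CPM in control (1298 and 1252 counts), 6.76 and 2.01 in TAM short (60 and 16 counts), and 0 counts in all 6 libraries of DMBA, TAM long and DMBA+TAM. The TAM short libraries lay between the control and the rest without overlap. It was at least 492-fold lower in DMBA, at least 537-fold lower in TAM long and at least 102-fold lower in DMBA+TAM (floor of 3 counts in each library), and 33.2-fold lower in TAM short (adjusted p = 0.000664). The stretch upstream of it, shown above, holds no GCGTG match. The small intestine markers fell in the same order, with sums of 39487 to 42324 in control, 20340 to 22729 in TAM short (11394 to 14899 without *Fabp6*, which rose there) and 525 to 1006 in DMBA and TAM long.

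*Ugt2b34* was the main UGT, with 62.9% and 64.0% of the UGT FPKM in control and up to 85.6% in DMBA. It stood at 835 and 839 normalized CPM in control, 381 and 409 in DMBA, 374 and 373 in TAM short, 633 and 465 in TAM long, and 1.05 and 0 in DMBA+TAM. Every treated library was below the controls, and DMBA+TAM held 2 counts in all. It fell 2.12-fold in DMBA (adjusted p = 0.00199), and was 1750-fold lower in DMBA+TAM with a 95% counting interval of 483 to 14400.0. The falls in TAM short (2.24-fold) and TAM long (1.52-fold) were each lost without 3 of the 4 libraries (adjusted p up to 0.0803 and 0.213). Its neighbour *Ugt2b35* stood at 40.7 and 47.8 in control, 19.2 and 28.6 in DMBA, 28.1 and 24.4 in TAM short, 28.9 and 25.0 in TAM long, and 0 in both DMBA+TAM libraries. All 8 treated libraries were below control, and it fell in each comparison, by at least 30.5-fold in DMBA+TAM. Its log2 fold changes were -0.90 in DMBA, -0.75 in TAM short and -0.71 in TAM long, with calls lost without control replicate 2 in DMBA, that library or TAM long replicate 2 in TAM long, and any library in TAM short (adjusted p up to 0.268). *Ugt2b36* fell in DMBA (log2 fold change -2.82), TAM long (-2.21, lost without control replicate 1 or TAM long replicate 2, adjusted p up to 0.0686) and DMBA+TAM (at least 7.81-fold).

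*Ugt2b5* and the UGT1A genes are less certain. *Ugt2b5* had 18.6 and 17.7 normalized CPM in control, 23.0 and 1.46 in DMBA, 10.1 and 9.32 in TAM short, 51.3 and 21.2 in TAM long, and 0 in both DMBA+TAM libraries. Its 2 DMBA libraries lay on either side of control, and without DMBA replicate 1 it fell in DMBA (log2 fold change -3.65). Its fall in DMBA+TAM, at least 12.5-fold, was lost without any single library (adjusted p up to 0.105). The 9 UGT1A transcripts share their last exons at one locus (chr1:88055388-88220002), and 52.1% to 80.2% of their 50-base stretches occur in another gene, so their split depends on how the authors' counting treated shared exons, which is not given in the sources used here. *Ugt1a7c*, which serves phenols, had 34.0 and 42.1 in control, 25.7 and 14.5 in DMBA, 37.0 and 28.6 in TAM short, 79.5 and 47.9 in TAM long, and 4.21 and 7.91 in DMBA+TAM. It fell in DMBA+TAM (log2 fold change -2.61, adjusted p = 0.000494) and in DMBA (-0.91, lost without 3 of the 4 libraries, adjusted p up to 0.189), and without TAM long replicate 2 it was called higher in TAM long (1.06, adjusted p = 0.0407). *Ugt1a1*, the only enzyme for bilirubin, fell from 10.7 and 10.8 to 2.58 and 0.112 in DMBA (adjusted p = 0.017, up to 0.0748 without either control library) and to 0 in both DMBA+TAM libraries (at least 7.43-fold lower). *Ugt1a9* fell from 1.47 and 1.32 by a ratio of 28.1 in DMBA (95% counting interval 4.59 to 1160.0) and 15.2 in TAM long (3.78 to 133). Neither call of *Ugt1a9* was made by DESeq2 (adjusted p = 0.118 and 0.181), and they were lost without 3 of the 4 libraries in DMBA and any library in TAM long.

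The SULT genes had a summed level in TAM long near that in control, with *Sult1d1* a leading member in both groups and *Sult1a1* in TAM long but not in control. Their summed level was 1113 to 1176 normalized CPM in control and 1036 to 1171 in TAM long, against 496 to 635 in DMBA, 647 to 702 in TAM short and 23.7 to 41.1 in DMBA+TAM. In control, *Sult1b1*, *Sult1d1* and *Sult2b1* together held nearly all of the SULT FPKM and *Sult1a1* 0.495% and 0.582%, while in TAM long *Sult1d1* held 41.4% and 40.8% (33.9% and 30.2% in control), *Sult1a1* 39.7% and 36.4% and *Sult2b1* 3.25% and 3.62%. *Sult1a1* (chr7:126672865-126676432), the broad phenol sulfotransferase that also activates hydroxylated aromatic carcinogens, was read 39 and 47 times in control, 2635 and 1379 in DMBA, 22 and 14 in TAM short, 4429 and 3078 in TAM long, and 63 and 41 in the shallower DMBA+TAM. These were 4.40 and 5.65 normalized CPM in control, 235 and 155 in DMBA, 2.48 and 1.76 in TAM short, 381 and 302 in TAM long, and 33.2 and 18.0 in DMBA+TAM. The long groups stood far above the others, DMBA+TAM between, and no group overlapped control. *Sult1a1* rose 38.7-fold in DMBA (log2 fold change 5.28, SE 0.32, adjusted p = 2.17e-06), 67.9-fold in TAM long (6.09, SE 0.33, adjusted p = 1.04e-06) and 5.03-fold in DMBA+TAM (2.33, SE 0.35, adjusted p = 0.000212). These calls held without each library of their comparison.

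*Sult1c2* (chr17:53829637-53846339) was likewise highest in TAM long and next in DMBA. Its counts were 4 and 2 in control, 209 and 237 in DMBA, 13 and 16 in TAM short, 906 and 640 in TAM long, and 0 in both DMBA+TAM libraries, or 0.451 and 0.240, 18.6 and 26.6, 1.47 and 2.01, 78.0 and 62.8 and 0 normalized CPM. It rose 61.8-fold in DMBA (adjusted p = 5.04e-06) and 193-fold in TAM long (adjusted p = 1.14e-06), and its rise of 4.79-fold in TAM short was lost without 3 of the 4 libraries (adjusted p up to 0.134). In DMBA+TAM it was at least 15.6-fold below DMBA. Colon markers rose in DMBA and TAM long, the same libraries in which both sulfotransferases rose, and their sum in TAM short (566 to 603) was near that of control. In DMBA+TAM the colon sum was 9.67 to 15.3, below that of control, while *Sult1a1* stayed above control. Smooth muscle markers also rose in DMBA and TAM long (6 of 6 in each). In DMBA+TAM 10 of 10 fibroblast, 5 of 5 endothelial and 5 of 5 macrophage markers rose. The part of these markers was not tested.

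**Figure D3:**
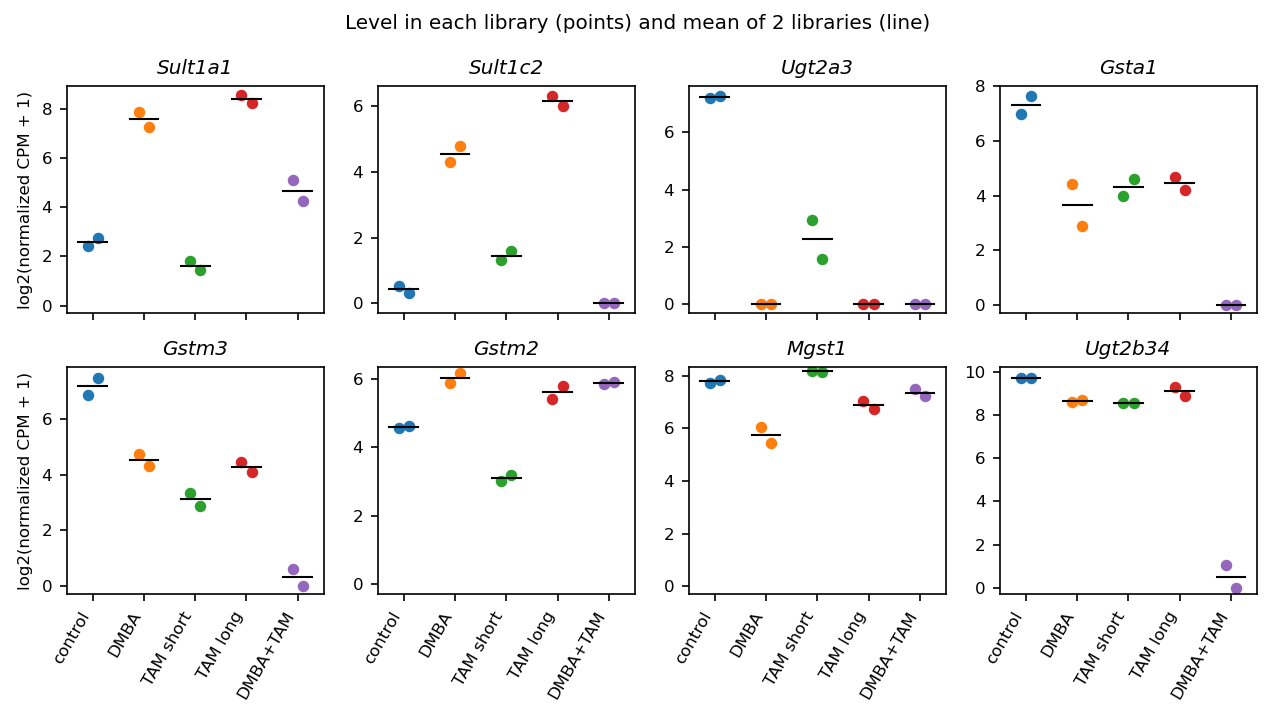
Level of 8 members in each library as log2(normalized CPM + 1), with points for the 10 libraries and a line for the mean of each group of 2. *Sult1a1* and *Sult1c2* are highest in DMBA and TAM long, *Ugt2a3* and *Gsta1* are highest in control, and in DMBA+TAM *Mgst1* lies near and *Gstm2* above control while *Ugt2b34* and *Gstm3* lie near 0.

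Of the 3 sulfotransferases that led in control, *Sult1b1* and *Sult2b1* fell in both long groups and *Sult1d1* in DMBA. *Sult1b1*, which sulfates thyroid hormone and phenols, stood at 527 and 551 normalized CPM in control, 107 and 129 in DMBA, 259 and 213 in TAM short, 180.5 and 215 in TAM long, and 0 in both DMBA+TAM libraries. It fell 4.57-fold in DMBA, 2.28-fold in TAM short and 2.72-fold in TAM long (adjusted p = 1.31e-05, 0.00162 and 0.000126). *Sult2b1*, the cholesterol and pregnenolone sulfotransferase, stood at 193 and 242 in control, 40.5 and 41.8 in DMBA, 152 and 157 in TAM short, 20.4 and 19.6 in TAM long, and 0.527 and 0 in DMBA+TAM. The 4 libraries of the long groups lay far below control, and it fell 5.28-fold in DMBA and 10.9-fold in TAM long (adjusted p = 3.27e-06 and 5.86e-07). *Sult1d1*, which sulfates catecholamines in the mouse, was not called in TAM long (log2 fold change 0.31, SE 0.20, adjusted p = 0.252). It stood at 385 and 374 in control, 226 and 140 in DMBA, 285 and 271 in TAM short, 507 and 433 in TAM long, and 0 in both DMBA+TAM libraries, and fell 2.07-fold in DMBA (adjusted p = 0.00323). In DMBA+TAM, *Sult1b1* and *Sult1d1* were at least 372-fold and at least 262-fold lower than control, and *Sult2b1*, with 1 count in 2 libraries, 904-fold with a 95% counting interval of 162 to 35700.0. Epithelial markers fell in the same libraries. *Sult5a1*, an enzyme with no well defined substrate, rose in DMBA+TAM from 0.226 and 0.240 to 2.63 and 3.08 (adjusted p = 0.000766), a ratio of 12.4 with a 95% counting interval of 3.74 to 52.6 that rests on 5 and 7 counts against 2 and 2. *Sult4a1*, the brain form, passed no comparison.

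**Figure D4:**
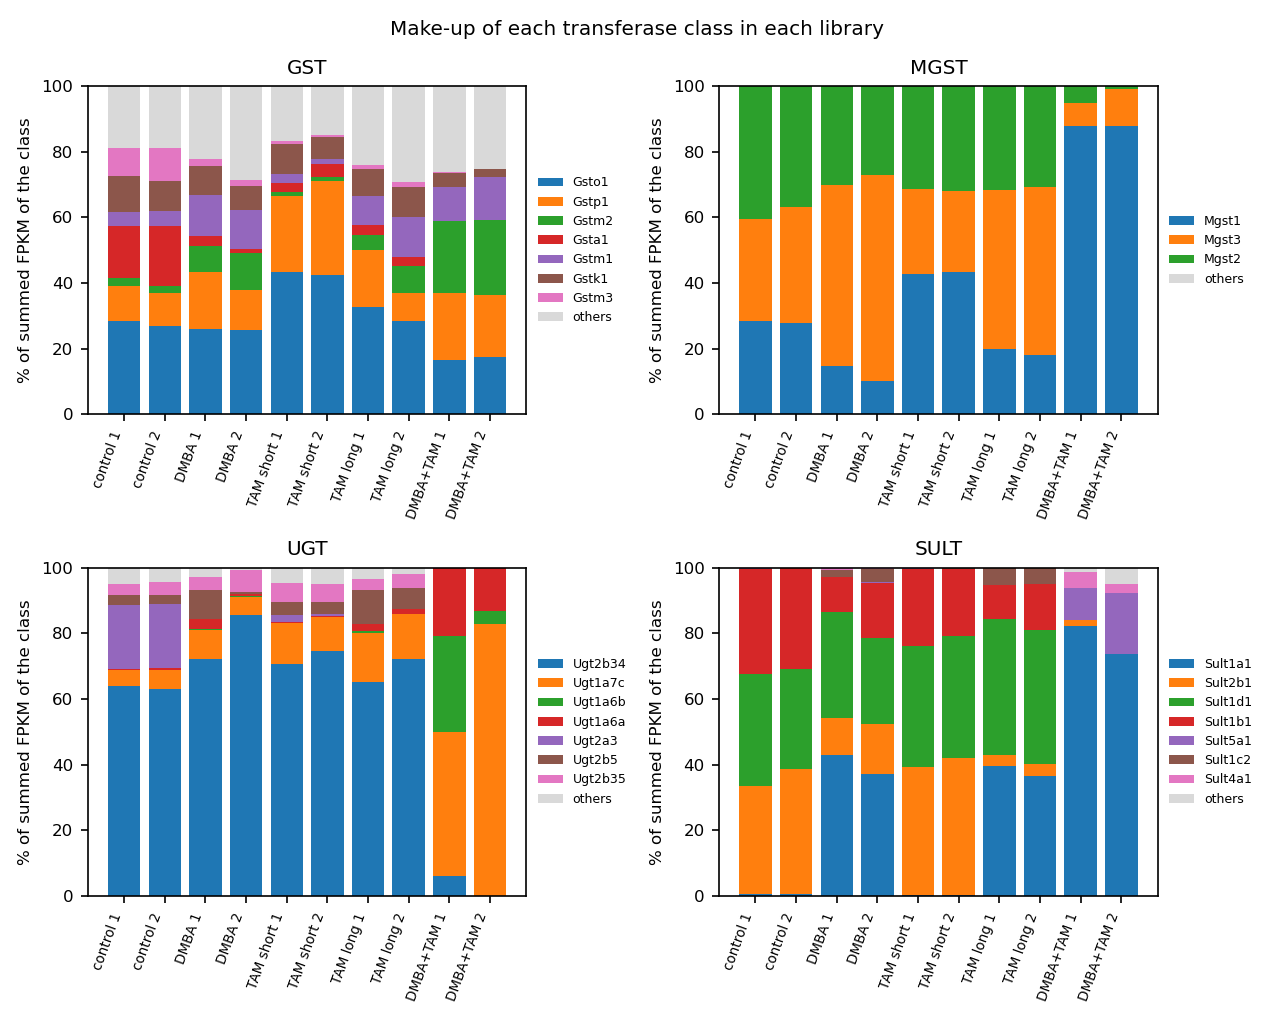
Share of the summed FPKM of each class held by its leading members in each of the 10 libraries, as stacked bars that reach 100%. *Sult1a1* fills more of the SULT bar than *Sult1d1* in DMBA (42.8% and 37.0% against 32.3% and 26.3%), about as much in TAM long and most of it in DMBA+TAM, and *Mgst1* fills 87.8% and 87.9% of the MGST bar in DMBA+TAM, where the UGT and SULT bars rest on few counts.

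The transferases that differed between the TAM groups were mostly higher in TAM long. In TAM long against TAM short 15 of the 40 rose and 3 fell, where 22.0% of all genes rose and 20.3% fell, 42.2% together (5 fell without TAM long replicate 1). The largest rise was that of *Sult1a1* (159-fold, adjusted p = 1.35e-06), followed by *Sult1c2* (40.4-fold), *Ugt1a6a* (14.1-fold, from 5 and 5 counts to 142 and 50), *Gstm1* (6.94-fold), *Gsta4* (6.57-fold) and *Gstm2* (6.32-fold), with *Ugt1a6b*, at 0 in TAM short, at least 3.71-fold higher (a call lost without 3 of the 4 libraries, TAM long replicate 1 and either TAM short library), and those that fell were *Ugt2a3* (at least 15.9-fold), *Sult2b1* (7.70-fold) and *Mgst1* (2.45-fold). In the same comparison 10 of 10 fibroblast, 6 of 6 smooth muscle and 5 of 6 colon markers rose and 10 of 10 small intestine markers fell, and their part was not tested. DMBA and TAM long differed in 7 of the 40 members. In DMBA 1 member (*Sult2b1*, 2.06-fold) was higher and 6 were lower, against 1.46% and 1.24% of all genes (2.70% together): *Gstp2*, *Sult1c2* (3.12-fold), *Sult1d1* (2.56-fold), *Mgst1* (2.18-fold), *Sult1b1* (1.68-fold) and *Ugt1a7c*. Without TAM long replicate 1 no member was called in either direction (2 higher and 8 lower at an unadjusted p), and without DMBA replicate 1, 10 were lower, so this comparison rests on single libraries. Fitted on the libraries of DMBA and TAM long alone, it called 0 higher and 0 lower (1 and 10 at an unadjusted p, 1 and 10 by DESeq2 on all libraries).

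DMBA+TAM differed from DMBA by 3 members that were higher and 22 that were lower, where 25.2% of all genes were higher and 29.9% lower (55.1% together). Those higher were *Mgst1* (3.03-fold), *Sult5a1* (log2 fold change 2.98, SE 0.59) and *Gsta3* (1.52, SE 0.35, lost without DMBA+TAM replicate 2, adjusted p = 0.139). *Sult1a1* was 7.70-fold lower than in DMBA (adjusted p = 2.17e-05) although above control. *Gstm2* was not called (log2 fold change -0.16, SE 0.17, adjusted p = 0.447).

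The genes that supply the enzymes and handle their products are given as lists of related genes, whose called shares stand against 47.8% of all genes called in DMBA, 14.3% in TAM short, 46.0% in TAM long and 64.3% in DMBA+TAM. Of 11 genes for cofactor supply, 8 fell and 0 rose in DMBA+TAM (edgeR and DESeq2, 0 at an unadjusted p). In DMBA 2 of them rose and 4 fell, and in TAM long 3 rose and 2 fell. In TAM short 2 rose (1 by DESeq2) and 0 fell (1 at an unadjusted p). *Gsr*, which regenerates glutathione, was at 525 and 459 normalized CPM in control, 137 and 142 in DMBA, 748 and 661 in TAM short, 144 and 126 in TAM long, and 26.3 and 28.1 in DMBA+TAM. It fell by 1.82 on the log2 scale in DMBA and rose by 0.52 in TAM short. Of 6 export pumps, 3 rose and 2 fell in DMBA and 3 rose and 1 fell in TAM long. *Abcc2*, the apical pump for glutathione and glucuronide conjugates, was at 281 and 306 in control, 0.891 and 0.448 in DMBA, 46.2 and 51.9 in TAM short, 1.81 and 0.392 in TAM long, and 0 in both DMBA+TAM libraries. *Abcc3*, its basolateral counterpart, was at 72.0 and 87.6 in control, 334 and 222 in DMBA, 48.1 and 65.2 in TAM short, 307 and 227 in TAM long, and 47.4 and 56.7 in DMBA+TAM. *Abcc2* was thus lower and *Abcc3* higher in every library of both long groups. Of 5 genes for conjugate breakdown, 2 rose (1 by DESeq2) and 2 fell in DMBA, among them *Ggt1*. This gene was at 738 and 909 in control, 8.91 and 1.35 in DMBA, and 39.9 and 7.45 in TAM long. Of 7 other transferases tested, 1 rose and 3 fell in DMBA, 3 and 2 in TAM long, and 2 and 2 in DMBA+TAM. *Hpgds*, a prostaglandin D synthase of the sigma class, rose in DMBA (log2 fold change 2.43) and in DMBA+TAM (5.11). Its level was 9.47 and 7.06 normalized CPM in TAM long, against 2.03 and 1.68 in control and 7.93 and 12.4 in DMBA.

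The regulators and sentinel targets of these genes were also counted. Of all genes, 24.5% rose and 23.3% fell in DMBA, 23.2% and 22.8% in TAM long, and 29.0% and 35.3% in DMBA+TAM. Of 10 genes of the Nrf2 list, 2 rose and 7 fell in DMBA, 1 and 4 in TAM long, and 1 and 8 in DMBA+TAM. *Srxn1* fell in DMBA from 431 and 462 to 155 and 96.3, and stood at 187 and 161 in TAM long. *Hmox1*, which macrophages also express, rose in DMBA+TAM from 2.14 and 4.57 to 132 and 136. Of 7 aryl hydrocarbon receptor genes tested, 4 fell in DMBA and 0 rose (edgeR and DESeq2, 0 at an unadjusted p). In TAM long 3 fell (2 by DESeq2) and 0 rose (0 at an unadjusted p), while in DMBA+TAM 3 rose and 3 fell. Those that rose in DMBA+TAM were *Cyp1b1*, *Ahr* (the receptor itself, from 19.4 and 15.7 to 40.0 and 48.8) and *Arnt* (its partner, from 45.0 and 45.8 to 66.9 and 66.8). *Cyp1b1*, which oxidizes DMBA, was at 11.1 and 13.1 in control, 0.535 and 0.336 in DMBA, 13.5 and 10.6 in TAM short, 1.21 and 0.883 in TAM long, and 113 and 217 in DMBA+TAM. It was thus below control in both long groups and above it in DMBA+TAM, the libraries with the highest fibroblast sums. Of 7 nuclear receptors and gut factors, 7 fell in DMBA+TAM, among them *Hnf4a*, from 973 and 939.5 to 2.11 and 0.440. Among the transferases with at most 2 counts each over the 2 DMBA+TAM libraries were *Ugt2b34*, *Ugt2b35*, *Ugt2a3*, *Sult1b1*, *Sult1c2*, *Sult1d1*, *Sult2b1*, *Gsta1* and *Gstm3*. The epithelial marker sum was 27.7 to 36.3 in these libraries.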

How the data were processed

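RNA-seq of 10 intestinal organoid libraries was analysed, with the group of each library taken from the treatment in its label. Mapping was with TopHat and counting on exons with HTSeq. The authors deposited these counts, with FPKM, in 1 table on GRCm38.p6. Whether counting used strand or shared exons is not given in the sources used here. The authors' FPKM rests on a length that differs by over 1% from the listed length in 13703 of 26392 genes with counts, so levels between genes are approximate. Columns with the authors' own comparisons were not used. The table has 47074 lines, of which 5 are fragments without counts, and all 63 member IDs have the same symbol in GENCODE M21.

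The deposited counts entered edgeR 4.0.16 (R 4.3.3) with filterByExpr by group (TMM factors of 0.832 to 1.192, quasi-likelihood F-test over all 10 libraries, Benjamini-Hochberg adjustment over 16179 genes, threshold 0.05). The standard error is the log2 fold change divided by the root of F. With 2 libraries a group an exact permutation test of a single value cannot go below p = 0.333, so such tests are not given. Normalized CPM are counts over the total times the TMM factor. Against a group at 0, folds were computed to a floor of 3 counts a library, and with 1 to 3 counts a library the ratio has a 95% Clopper-Pearson interval; floors and intervals cover counting error only. Members with a group mean of at least 20 normalized CPM were given in every library, others where called or to complete a subfamily. From the pathway lists only some of the called genes were given. Protein identity had been planned to show members that share reads, and was replaced by sharing of 50-base stretches of GENCODE M21 transcripts. The members, lists and markers were chosen with earlier results of these data known. An item of the lists is not reported here. The test was tried on simulated counts with known changes. Alternatives were DESeq2 1.42.0, library size without TMM, no filter, the compared groups only, the replicate number as a block, each library left out, and counts thinned to 1592366 a library.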

Additional observations from a re-analysis of the deposited data

How the results depend on the processing

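Over the alternatives that were run, 118 of 182 results of named members kept their side of the threshold and 64 did not in at least 1, 35 of the 113 calls were lost in at least 1, and no called value changed direction, though some uncalled ones did. For counts of members, thinning to the depth of DMBA+TAM gave 12 lower in DMBA (19 before), 7 lower in TAM long (14 before), 0 higher in TAM short (0 at an unadjusted p, 2 by DESeq2 on full counts) and 0 higher in DMBA against TAM long (1 at an unadjusted p). Scaling by library size alone gave 9 lower in TAM long and shifted the median of all genes by 0.30 in DMBA, 0.32 in TAM long, 0.49 in DMBA+TAM, 0.18 in DMBA+TAM against DMBA and 0.23 in TAM long against TAM short (log2). Without the filter 11 were higher in TAM long, 25 lower in TAM short, 5 lower in TAM long against TAM short and 15 lower in DMBA against TAM long. Fitting the compared groups only gave 4 higher and 25 lower in TAM short, and 0 higher and 0 lower in DMBA against TAM long (1 and 10 at an unadjusted p), where DESeq2 gave 10 lower. The cause was not tested, except that thinning leaves fewer counts.

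With 1 library left out (the lone library of that group assumed to vary like the other groups), counts ranged from 3 to 5 higher and 13 to 19 lower in DMBA, 4 to 6 higher and 8 to 11 lower in TAM long, 0 to 1 higher and 10 to 15 lower in TAM short, 3 to 3 higher and 21 to 24 lower in DMBA+TAM, 2 to 3 higher and 20 to 26 lower in DMBA+TAM against DMBA, 10 to 18 higher and 3 to 5 lower in TAM long against TAM short, and 0 to 1 higher and 0 to 10 lower in DMBA against TAM long. Libraries share only a replicate number: the replicate differences of 2 groups correlated across genes at -0.041 to 0.260. With the number as a replicate block, 6 members were higher and 19 lower in DMBA, 2 and 19 in TAM short, 7 and 14 in TAM long, 3 and 24 in DMBA+TAM, 3 and 23 in DMBA+TAM against DMBA, 17 and 4 in TAM long against TAM short, and 1 and 7 in DMBA against TAM long. Depth limits DMBA+TAM most, where 3 counts are 1.32 to 1.58 normalized CPM.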

Other observations

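Some related genes stood outside the rule because the table lists them under older names. The counts of Gstp3 were 49 and 47 in control, 23 and 31 in DMBA, 45 and 47 in TAM short, 11 and 12 in TAM long, and 1 and 0 in DMBA+TAM. Sult6b2 had 2 and 21 counts in control and 0 elsewhere, and Sult3a2 had no count in any library. Of the 5 genes for conjugate breakdown, 2 rose and 3 fell in DMBA+TAM, where 29.0% of all genes rose and 35.3% fell (64.3% together). *Gusb*, the lysosomal enzyme that removes glucuronic acid, stood at 26.5 and 30.4 normalized CPM in control and 168 in both DMBA+TAM libraries (log2 fold change 2.56, edgeR). *Ggt5*, which cleaves glutathione conjugates, stood at 7.90 and 9.74 in control and 43.2 and 33.9 in DMBA+TAM (2.12), while *Ggt6* fell from 29.4 and 27.6 to 0.527 and 0 and *Ggt1* from 738 and 909 to 0 in both libraries (at least 568-fold lower). Macrophage and fibroblast markers rose in the same libraries. The breast cancer resistance pump *Abcg2* stood at 184 and 177 in control, 444 and 495 in TAM short, 54.9 and 59.3 in DMBA, 131 and 169.9 in TAM long, and 47.9 and 42.6 in DMBA+TAM, and rose in TAM short (log2 fold change 1.38) and fell in DMBA (-1.66) and DMBA+TAM (adjusted p = 2.36e-06).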
